A study of Cricetiscus sungorus with 24 samples.

Results

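The kidney's megalin and cubilin uptake system was described here through 9 genes chosen by their roles, namely the receptors Lrp2 and Cubn, the receptor partner Amn, the adaptor Dab2, the receptor chaperone Lrpap1, the endosomal chloride transporter Clcn5, the carried protein Rbp4, the transcription factor Hnf4a and the brush border scaffold Pdzk1. The genes were taken by symbol from the transcript count tables of a pair of experiments, and for each gene the transcript with the most reads was kept. Both tables gave values for 8 of the 9 genes, of 9681 genes listed in experiment 1 and 15842 in experiment 2, and Cubn was not analysed here. The animals were Djungarian hamsters, which the labels call Cricetiscus sungorus, and the tissue was frozen kidney, sequenced as cDNA on a nanopore device. The methods name a kit without amplification and the labels a kit with PCR, so a read may not stand for 1 molecule.

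Experiment 1 compared adult males kept in a long photoperiod of 16 h of light per day (LP, n = 4) with males moved to a short photoperiod of 8 h of light for 12 weeks (SP12wk, n = 4) or 28 weeks (SP28wk, n = 4). Experiment 2 compared adult females after 8 weeks in SP that received the vehicle, dimethyl sulfoxide in saline (SAL, n = 6), or 18 µg prolactin (PRL, n = 6) by daily injection into the abdomen for 3 days. All 12 females were in SP and no female LP group was sequenced, so the experiment had no summer reference. The males and females differed in sex, in the flow cell, in the length of SP and in the injections, so that these factors cannot be told apart between the experiments. The questions were whether photoperiod changed the uptake genes in the male kidney, and whether PRL changed them in the SP female kidney.

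Proximal tubule cells take back proteins that pass the glomerular filter. Megalin, the product of Lrp2, and cubilin bind filtered proteins at the apical membrane, amnionless carries cubilin to the surface, and Dab2 links the receptors to clathrin. The bound proteins go to acidified endosomes, where they leave the receptors, which are recycled. The chaperone made from Lrpap1 keeps newly made megalin from binding ligands too early, and the chloride and proton exchanger made from Clcn5 serves endosome acidification.

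The libraries held 15685 to 57583 reads in experiment 1 and 174054 to 756526 in experiment 2, counted with 1 transcript per gene, and levels are given as reads scaled to a library of 1000000 reads (CPM). All 17 proximal tubule markers were listed in both tables, and their summed level was 841 to 3385 CPM in the males and 2462 to 6262 CPM in the females. The males' libraries were thin. Of the 17 proximal tubule markers, Slc22a8, Slc13a3 and Keg1 had no read in LP, while their means in SAL were 65.2, 69.4 and 34.0 CPM. Miox and Ass1 had higher means in LP (804 and 479 CPM) than in SAL (496 and 368 CPM). Slc5a12 was also higher in LP, on 1 read there, and the remaining markers had lower means in LP than in SAL. The part of depth in these differences was not tested. The blood list, which holds the hemoglobin genes, summed to 14207 to 44111 CPM in the males and 8908 to 19489.8 CPM in the females. The groups overlapped within each experiment. This sum may hold the same reads more than once, since the hemoglobin copies had nearly equal counts. In LP, Hba-a1 and Hba-a2 had 512 and 497 reads, and Hbb-bs and Hbb-bt had 479 each.

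In the females given PRL, none of the 8 genes passed the test against SAL. By the quasi-likelihood test of edgeR, 0 of 8 passed an adjusted p of 0.05, beside 0 of all 10696 genes tested (0%). At an unadjusted p under 0.05 the counts were 0 of 8 and 522 of 10696 (4.88%), and DESeq2 also called 0 genes at its adjusted threshold. The values of SAL and PRL overlapped for all 8 genes, whereas 0.14% of the genes tested had groups without overlap. The samples were a transversely cut portion of each frozen kidney, in which fewer cells of a type and less RNA per cell cannot be told apart.

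Lrp2, the megalin gene, had 2142 reads over the 12 female libraries. In SAL its level ran from 263 CPM to 759 CPM with a median of 402 CPM. In PRL it ran from 218 CPM to 749 CPM with a median of 397 CPM. The high ends came from SAL replicate 1 and PRL replicate 2, and the other 10 libraries were at or below 484 CPM. The means were 451 ± 167 CPM in SAL and 428 ± 177 CPM in PRL (SD, n = 6 each), and the exact permutation p of this difference was 0.775 (two-sided). The edgeR log2 fold change was -0.12 ± 0.24 (SE), which left a 95% interval of the fold from 0.633 to 1.34 (adjusted p = 0.999). Within SAL the coefficient of variation of Lrp2 was 37.1%, while read counting alone would give 8.10%. Each animal had 1 library, so that animals and library preparation cannot be told apart in this spread.

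Amn encodes amnionless, the membrane partner of cubilin. It had 67 reads in the females, with 4.57, 13.3 and 25.6 CPM as the lowest, median and highest value in SAL and 4.598, 13.7 and 34.0 CPM in PRL. The groups overlapped along nearly their whole range. Its fitted fold had a 95% interval from 0.500 to 1.90 (log2 fold change -0.04 ± 0.43, edgeR adjusted p = 0.999), and the spread within SAL (48.0%) was close to that of read counting (44.9%).

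Dab2, the clathrin adaptor of megalin, was measured with 399 reads. It ran from 38.4 to 114 CPM in SAL, with a median of 109 CPM, and from 75.1 to 103 CPM in PRL, with a median of 89.6 CPM. The PRL libraries lay inside the range of SAL, where SAL replicates 4 and 6 were low and the other 4 lay between 108 and 114 CPM. The means were 91.7 ± 30.9 CPM and 88.6 ± 9.62 CPM (SD, n = 6 each), with an exact permutation p of 0.827. For Dab2 the log2 fold change was -0.10 ± 0.23 (SE) and the interval of the fold was 0.649 to 1.34 (edgeR adjusted p = 0.999).

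Lrpap1, the chaperone gene, was read 2030 times. Its SAL libraries ran from 259 to 484 CPM (median 391 CPM). Its PRL libraries ran from 210 to 691 CPM (median 473 CPM). PRL held both the lowest library, replicate 3, and the highest ones, replicates 2 and 5 with 691 and 689 CPM. The mean was 379 ± 104 CPM in SAL and 478 ± 194 CPM in PRL (SD, n = 6 each), a difference of 99.1 CPM with an exact permutation p of 0.299. The fitted log2 fold change of 0.28 ± 0.23 (SE) left an interval of the fold from 0.850 to 1.74 (edgeR adjusted p = 0.999).

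Clcn5, which encodes the endosomal exchanger ClC-5, had 98 reads. The lowest, median and highest SAL values were 15.6, 19.3 and 39.8 CPM, and those of PRL were 10.6, 20.8 and 47.4 CPM. The groups overlapped, and the log2 fold change of 0.01 ± 0.38 (SE) had an interval of the fold from 0.556 to 1.82 (edgeR adjusted p = 0.999).

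Rbp4 encodes the plasma retinol carrier, a filtered protein that megalin takes up. Its 75 reads gave 6.12 to 39.0 CPM in SAL (median 16.7 CPM) and 3.95 to 23.0 CPM in PRL (median 15.3 CPM). SAL replicate 2 was the high library, and 4 of the 6 SAL values lay within 12.8 to 21.6 CPM. The edgeR fit gave a log2 fold change of -0.44 ± 0.42 (SE), with an interval of the fold from 0.386 to 1.41 (adjusted p = 0.999).

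Hnf4a encodes a nuclear receptor that drives proximal tubule genes. It had 62 reads, with 3.201 to 22.8 CPM in SAL (median 10.4 CPM) and 7.91 to 21.1 CPM in PRL (median 17.0 CPM). In SAL the libraries split into 3 at or below 5.41 CPM and 3 at or above 15.3 CPM, and the PRL libraries lay inside that range. The log2 fold change of 0.51 ± 0.44 (SE) had an interval of the fold from 0.721 to 2.81 (edgeR adjusted p = 0.999), and 1 to 16 reads stood behind each library.

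Pdzk1 encodes a PDZ scaffold that holds transporters at the brush border. It had 966 reads. Its SAL libraries ran from 86.4 to 292 CPM (median 181 CPM). Its PRL libraries ran from 110.4 to 357 CPM (median 209 CPM). Within both groups there were high and low libraries, with SAL replicates 1, 2 and 3 between 237 and 292 CPM and SAL replicates 4, 5 and 6 between 86.4 and 126 CPM. The means were 184 ± 89.9 CPM and 219 ± 105 CPM (SD, n = 6 each), with an exact permutation p of 0.535. PRL against SAL gave a log2 fold change of 0.24 ± 0.28 (SE) and the interval of the fold 0.769 to 1.81 (edgeR adjusted p = 0.999).

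**Figure D1:**
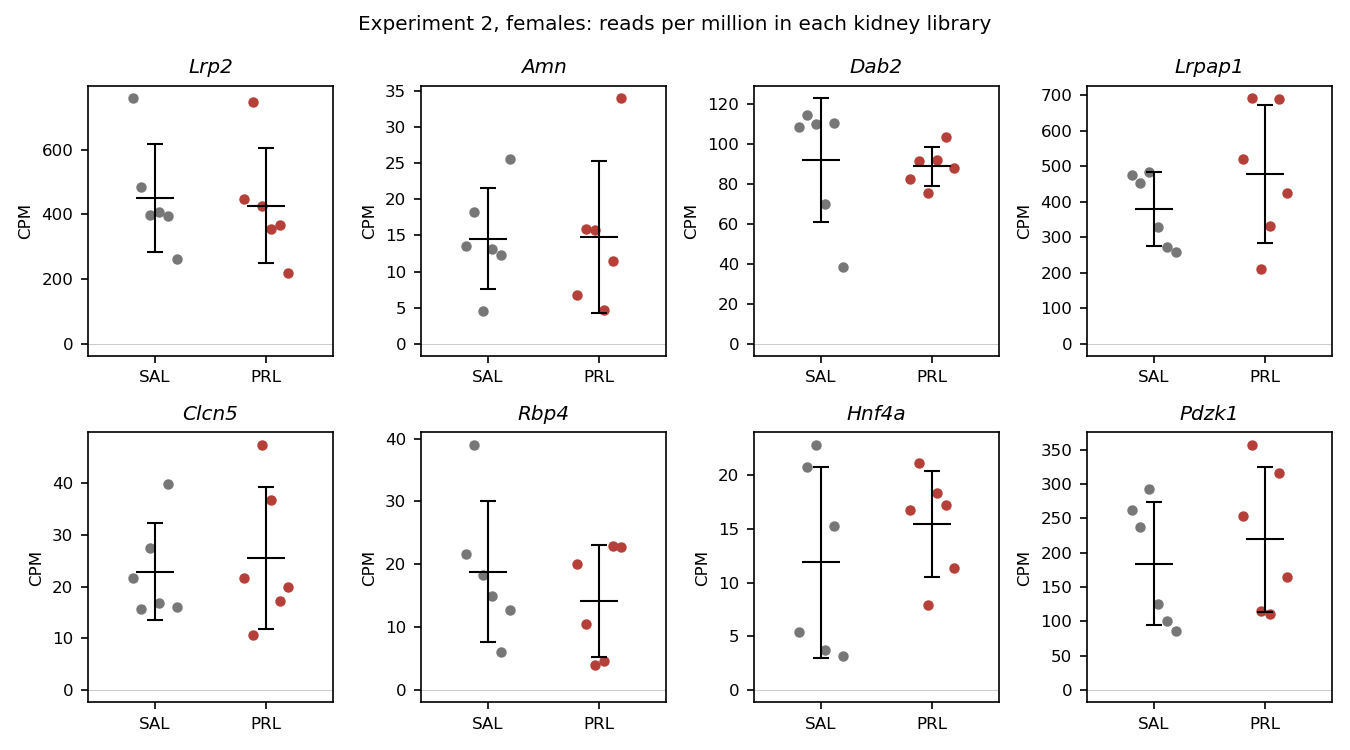
Levels (CPM, vertical axis, linear) of the 8 measured uptake genes in each female kidney library, with SAL in gray and PRL in red, ordered by replicate from left to right. Points are libraries, the long bar is the mean and the whiskers are 1 SD (n = 6 each). SAL and PRL overlap in every panel, and Lrpap1 spans 210 to 691 CPM in PRL.

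Lrpap1 and Pdzk1 varied together between the female libraries, a pair that was added after the values were seen. Across the 12 female libraries the log2 levels of Lrpap1 and Pdzk1 had a Pearson r of 0.928 (permutation p = 2e-05, adjusted p = 0.00012) and a Spearman rho of 0.923 (permutation p = 0.00014, adjusted p = 0.00084). The r was 0.947 once PRL replicate 3 and SAL replicate 6, whose Lrpap1 lay farthest from the median, were left out, and 0.926 after the group means were removed. The 4 genes with a mean of at least 10 reads gave 6 pairs, and this was the only one of the 6 that passed. Of 3213 other genes with a mean of at least 10 reads, 0.498% had an r with Lrpap1 at or above that of Pdzk1, and the median r was 0.163.

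Lrp2 did not share this pattern to a degree that passed. Its r was 0.557 with Pdzk1 (permutation p = 0.063, adjusted p = 0.127), 0.429 with Dab2 (adjusted p = 0.206) and 0.394 with Lrpap1 (adjusted p = 0.206). Without SAL replicate 1 and PRL replicate 2, the r with Lrpap1 was 0.10 and that with Pdzk1 was 0.33. Dab2 and Pdzk1 had an r of 0.569 (adjusted p = 0.102). It passed when SAL replicate 5 was left out (r = 0.729, adjusted p = 0.00987). Dab2 and Lrpap1 had an r of 0.485 (adjusted p = 0.159).

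The levels of Lrpap1 and Pdzk1 followed the summed level of the 17 proximal tubule markers, a list that holds none of the 8 genes. Relations with marker sums were also added after the values were seen. The r was 0.946 for Lrpap1 (permutation p = 1e-05, the smallest these resamples can give, adjusted p = 0.00016, rho = 0.944 with adjusted p = 0.00024) and 0.952 for Pdzk1 (permutation p = 2e-05, adjusted p = 0.00016, rho = 0.965 with adjusted p = 0.00024). The 2 libraries farthest from the median sum were then left out, which gave 0.918 and 0.932, and removal of the group means gave 0.949 and 0.951. Among 3198 genes with a mean of at least 10 reads outside the marker list, Pdzk1 ranked 4 and Lrpap1 ranked 5 by this r, and the median r was 0.176. For Lrp2 the r was 0.534 (permutation p = 0.076, adjusted p = 0.0938, rho = 0.448), rank 869, and for Dab2 it was 0.554 (adjusted p = 0.0661, rho = 0.399), rank 822. The r of Lrp2 passed without PRL replicate 5 (0.642, adjusted p = 0.0475) and that of Dab2 without SAL replicate 5 (0.690, adjusted p = 0.0156). Whether the r of Lrp2 differed from that of Lrpap1 or Pdzk1 was not tested.

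Other lists moved in the same libraries, over 16 relations of 4 genes with 4 lists. With the thick limb and distal tubule markers, the r was 0.782 for Lrpap1 (adjusted p = 0.00856) and 0.863 for Pdzk1 (adjusted p = 0.00272), and with the collecting duct markers it was 0.823 (adjusted p = 0.00556) and 0.802 (adjusted p = 0.00803). The sum of 26 long mRNAs, such as Ahnak and Dst, ran the other way, with an r of -0.67 for Lrpap1 (adjusted p = 0.0327) and -0.77 for Pdzk1 (adjusted p = 0.0107). The relation of Lrpap1 with the long mRNAs failed the threshold without SAL replicate 3, 5 or 6 (r between -0.66 and -0.62), and by rho it did not pass (adjusted p = 0.120). For Dab2 the r was 0.700 with the thick limb and distal tubule list (adjusted p = 0.0140, rho = 0.559 with adjusted p = 0.120), which fell short without SAL replicate 6 (0.541). With the collecting duct list it was 0.626 (adjusted p = 0.0327), and by rho this relation did not pass (0.462, adjusted p = 0.213). The relation with the collecting duct list also failed without any 1 of SAL replicates 1, 3 and 6 and PRL replicate 5 (r between 0.515 and 0.613). With counts summed over transcripts both relations of Dab2 fell short (0.592 and 0.487), as did the latter with TMM scaling (0.528). None of the relations of Lrp2 passed over the 12 libraries, and without PRL replicate 5 that with the thick limb and distal tubule list did (r = 0.700, adjusted p = 0.0264). Among the lists, the r of other genes is given for the proximal tubule markers only. All these levels share the library total as denominator, and the part of tissue makeup and of mRNA length in the relations was not tested.

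**Figure D2:**
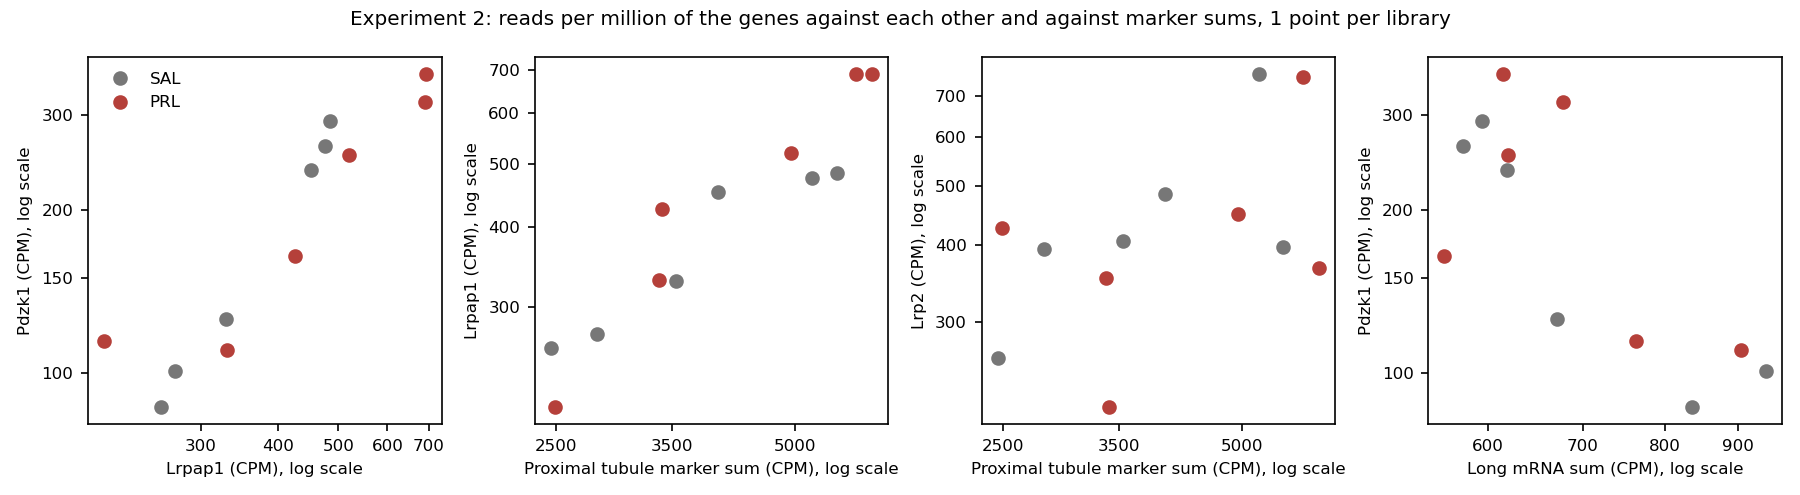
Each point is 1 of the 12 female kidney libraries (SAL gray, PRL red), and both axes are in CPM on a log scale. From left to right, Pdzk1 against Lrpap1 (r = 0.928), Lrpap1 against the summed proximal tubule markers (r = 0.946), Lrp2 against the same sum (r = 0.534) and Pdzk1 against the summed long mRNAs (r = -0.77). SAL and PRL are mixed along each cloud.

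The genes nearest to each of these 4 genes were found by the smallest SD over the 12 libraries of the log2 ratio to it, among 3213 candidates. For Lrp2 they were Pnp2 (SD 0.313), the pseudogene Ube2d-ps (0.313), Med31 (0.314), Psmd6 (0.324) and Ccnh (0.326), and the median over all candidates was 0.638. The other uptake genes were not near Lrp2, with Dab2 at rank 425 (SD 0.504), Lrpap1 at rank 1064 (0.581) and Pdzk1 at rank 1323 (0.605). Reads of Pnp2 and Ube2d-ps may be shared with near-identical copies. Lrpap1 had closer neighbors, which were Dhrs4 (SD 0.164), the gluconeogenic enzyme Fbp1 (0.187), the malate dehydrogenase Mdh1 (0.195), the fructose kinase Khk (0.197) and the lysosomal protease Ctsa (0.203). Pdzk1 was nearest to the enolase copies Eno1b and Eno1 (SD 0.179 and 0.180), which can share reads, and to Fbp1 (0.180), Grina (0.222) and Gstm1 (0.227). Dab2 was nearest to Btf3l4 (SD 0.230) and Itm2b (0.236), and Psme1, Ndfip1 and Osbpl1a followed with SDs of 0.247 to 0.253.

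In the males, photoperiod was tested for the 5 genes that had a read in at least 4 of the 12 libraries, which were Lrp2, Dab2, Lrpap1, Clcn5 and Pdzk1. In SP12wk against LP 0 of 5 passed, beside 1 of 5086 genes (0.0197%), in SP28wk against SP12wk 0 of 5 beside 7 (0.138%), and in SP28wk against LP 0 of 5 beside 11 (0.216%). At an unadjusted p under 0.05 none of the 5 passed in the 3 comparisons, beside 7.26%, 6.1% and 8.57% of all genes, and DESeq2 called none of the 5. All pairs of groups overlapped for each gene, beside 2.67%, 3.36% and 3.3% of all genes that did not. The 3 comparisons share libraries and are not independent. The fitted fold changes of all genes had a median of 0.16 on the log2 scale in SP28wk against SP12wk and 0.18 in SP28wk against LP, while they were near 0 with the size factors of DESeq2, so a change of that size is no change relative to the other genes.

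Lrp2 was the best counted of them, with 319 reads. In LP the 4 libraries held 847, 1346, 888 and 1049 CPM. In SP12wk they held 1389.7, 1530.1, 803 and 876 CPM. In SP28wk they held 869.6, 954, 828 and 955 CPM. The SP28wk libraries were close to each other and lay inside the range of SP12wk, with replicate 3 below the lowest LP library, and SP12wk had 2 libraries above every LP library and 1 below. Within SP28wk the coefficient of variation was 7.02%, while read counting alone would give 18.7%, so the closeness cannot show an even level between animals. The order of the means was SP12wk (1150 ± 364 CPM), LP (1032 ± 227 CPM) and SP28wk (902 ± 63.4 CPM) (SD, n = 4 each), with no neighbors in that order differing beyond their spread. The exact permutation p was 0.657 for SP12wk against LP, 0.371 for SP28wk against SP12wk and 0.343 for SP28wk against LP, in a design whose smallest p is 0.0286. The edgeR log2 fold changes were 0.32 ± 0.46, -0.15 ± 0.46 and 0.18 ± 0.46 (SE), with adjusted p of 0.914, 0.980 and 0.955. The last is positive although the mean CPM was lower by 131 in SP28wk, and with the size factors of DESeq2 it was -0.03. The intervals of the fold were 0.604 to 2.59, 0.441 to 1.85 and 0.549 to 2.33.

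Dab2 had 60 reads in the males, 3 to 10 in a library. In LP it was at 188, 168, 277 and 194 CPM. In SP12wk it was at 123, 383, 151 and 198 CPM. In SP28wk it was at 198, 166, 143 and 174 CPM. SP12wk spanned both other groups, and its highest library, replicate 2, rested on 6 reads. The order was SP12wk (213 ± 117 CPM), LP (207 ± 48.3 CPM) and SP28wk (170.0 ± 22.6 CPM), and no neighbors differed beyond the spread. The exact permutation p was 0.943 for SP12wk against LP, 0.686 for SP28wk against SP12wk and 0.257 for SP28wk against LP. The log2 fold changes lay between -0.08 and 0.16 with edgeR adjusted p of 0.965 to 0.980, and their intervals reached from a fold of 0.369 to 2.98.

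Lrpap1 had 37 reads, and 1 library in each group had none. LP held 47.0, 0, 166 and 38.8 CPM. SP12wk held 163, 0, 251 and 169 CPM. SP28wk held 0, 207, 143 and 122 CPM. In both SP groups 3 of 4 libraries stood at or above 122 CPM, as did 1 of 4 LP libraries. The order of the means was SP12wk (146 ± 105 CPM), SP28wk (118 ± 86.7 CPM) and LP (63.1 ± 71.9 CPM), and no neighbors differed beyond their spread. The log2 fold change was 1.47 ± 0.81 (SE) in SP12wk against LP, with an interval of the fold from 0.780 to 9.87 and an edgeR adjusted p of 0.642. In SP28wk against LP it was 1.27 ± 0.80 (SE), with an interval from 0.690 to 8.43 and an adjusted p of 0.730 by the same test. The exact permutation p of these comparisons was 0.314 and 0.400, and LP rested on 5 reads. Without LP replicate 3 the log2 fold changes were 2.29 and 2.05, and the lowest on omission of a library, without LP replicate 2, were 1.08 and 0.83.

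Clcn5 had 25 reads. LP held 0, 280, 111 and 77.7 CPM, SP12wk held 81.7, 0, 100.4 and 28.3 CPM, and SP28wk held 198, 41.5, 28.6 and 69.5 CPM. The groups overlapped throughout, and the means were 117 ± 118, 52.6 ± 46.5 and 84.3 ± 77.5 CPM (SD, n = 4 each). The log2 fold change was -0.78 ± 0.90 (SE) in SP12wk against LP and 0.70 ± 0.87 (SE) in SP28wk against SP12wk, with edgeR adjusted p of 0.853 and 0.980. Without LP replicate 2 the first was -0.10, and without SP28wk replicate 1 the second was 0.13.

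Pdzk1 had 10 reads in 5 of the 12 libraries. LP replicate 4 held 1 read (38.8 CPM), SP12wk replicates 3 and 4 held 4 and 1 (201 and 28.3 CPM), and SP28wk replicates 3 and 4 held 2 each (57.1 and 34.7 CPM). All other libraries were at 0. A difference of the size of these values was not detectable at this depth, since the fold of SP12wk against LP had an interval from 0.490 to 29.7 (edgeR adjusted p = 0.696). Its log2 fold change of 1.93 was 0.28 without SP12wk replicate 3 and 3.62 without LP replicate 4.

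Amn, Rbp4 and Hnf4a were too rare in the males for a test. Amn had 2 reads, in SP12wk replicate 3 and SP28wk replicate 1. Rbp4 had 3, in SP12wk replicate 1 and SP28wk replicates 3 and 4. Hnf4a had 1 on the kept transcript, in SP28wk replicate 2, and another of its transcripts was read in SP12wk replicate 4. None of the 3 genes had a read in LP, where 3 reads over the 4 libraries, the limit that a count of 0 allows, would be 36.2 CPM. That limit lies above the mean of each of these genes in both female groups, so their absence in LP could not be told from the female levels. For all 3 genes, the transcript kept in the females was not the one kept in the males.

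**Figure D3:**
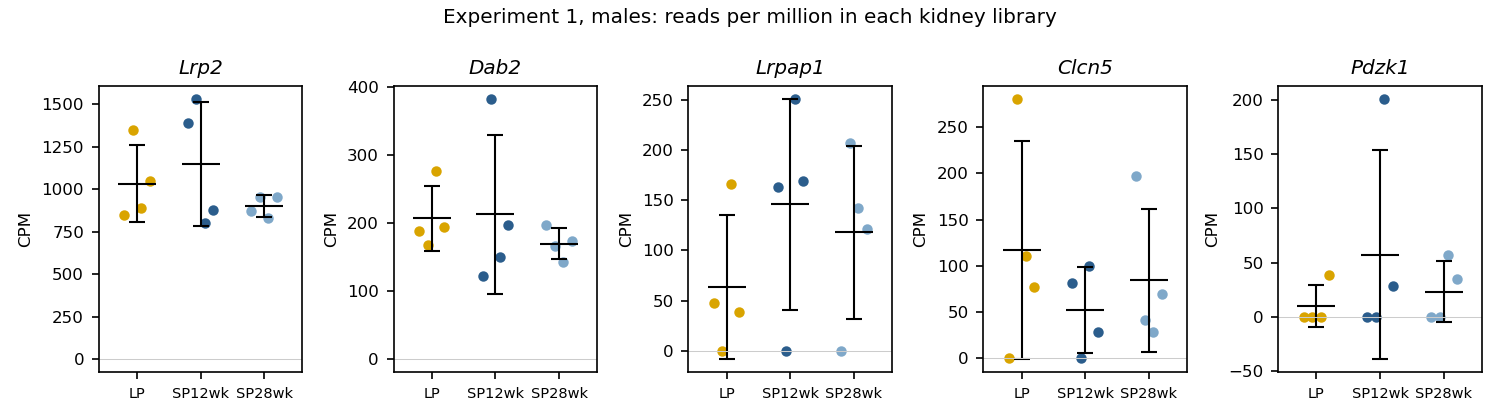
Levels (CPM, vertical axis, linear) of the 5 tested uptake genes in each male kidney library, with LP in yellow, SP12wk in dark blue and SP28wk in light blue, ordered by replicate. Points are libraries, the long bar is the mean and the whiskers are 1 SD (n = 4 each). The groups overlap in each panel, and the SP28wk libraries of Lrp2 lie between 828 and 955 CPM, a spread below that of read counting alone.

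**Figure D4:**
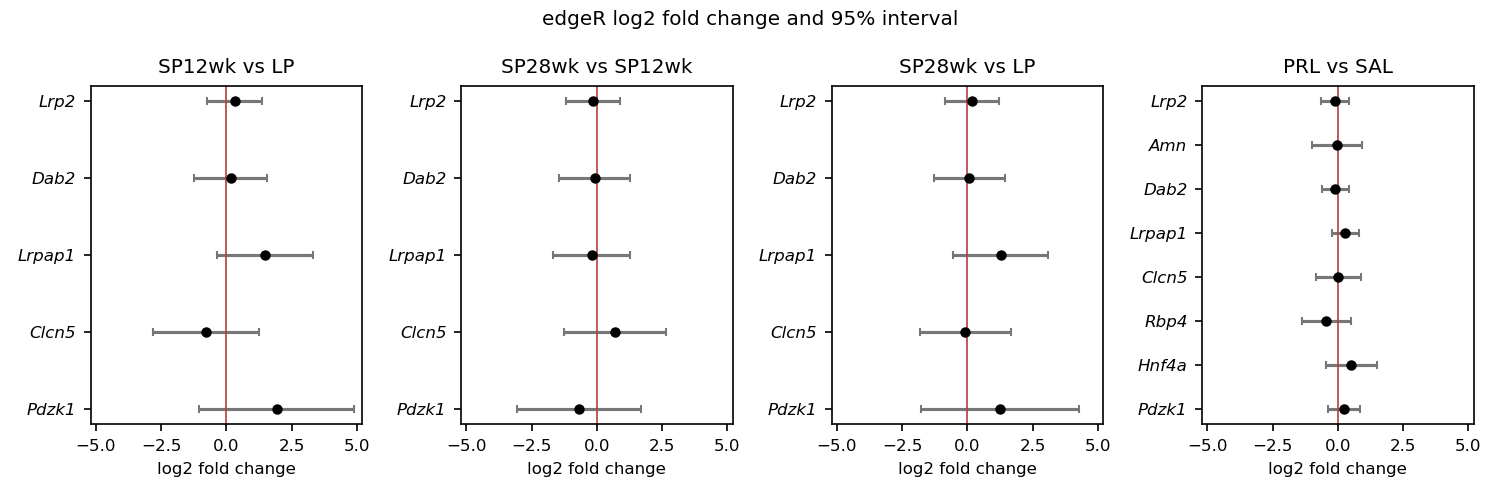
Log2 fold change of each tested uptake gene (point) with its 95% interval (bar) from edgeR in the 4 comparisons, with a red line at no change. All 23 intervals cross the line, and those of the females are narrower, such as -0.66 to 0.42 for Lrp2 against -0.73 to 1.37 in SP12wk against LP.

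The ratios to Lrp2 are set side by side for both experiments, in which different transcripts of Dab2 and of Pdzk1 had the most reads and were kept. Dab2 had 0.211 ± 0.0785 reads per read of Lrp2 in LP, 0.188 ± 0.0712 in SP12wk and 0.189 ± 0.0259 in SP28wk (SD, n = 4 each). In the females it had 0.209 ± 0.0631 in SAL and 0.237 ± 0.0999 in PRL (SD, n = 6 each). Lrpap1 had 0.0700 ± 0.0817, 0.156 ± 0.131 and 0.129 ± 0.0937 reads per read of Lrp2 in LP, SP12wk and SP28wk, and 0.878 ± 0.217 and 1.22 ± 0.577 in SAL and PRL. Pdzk1 had at most 0.0706 on average in a male group, and 0.411 ± 0.177 and 0.539 ± 0.236 in SAL and PRL. Every male library had a lower ratio of Lrpap1 to Lrp2 (at most 0.313) than every female library (at least 0.491), while the ratios of Dab2 overlapped. The sexes, flow cells, SP lengths, tables and the injections, which all females and no males received, cannot be told apart, and no test was made. Within the females no difference between PRL and SAL was detected in these ratios (n = 6 each). The exact permutation p was 0.234 for Lrpap1, 0.310 for Pdzk1 and 0.552 for Dab2. Alongside, the summed long mRNAs were at 913 to 3590 CPM in the males and 559 to 943 CPM in the females, and their part in the ratios was not tested.

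Around the receptors, 94 further genes in 4 lists were followed, which were the apical endocytic and recycling machinery (40 genes), filtered ligands and carriers (20), proximal tubule transcription factors (14) and brush border scaffold and apical partners (20). None passed the adjusted threshold in any comparison, among 58 tested in the males and 81 in the females. In PRL against SAL, 5 were higher and 1 lower at an unadjusted p under 0.05, beside 522 of all 10696 genes in either direction (4.88%), and the median log2 fold change was 0.06 beside 0.03 for all genes. In the males 1 was higher and 1 lower in SP12wk against LP, 3 and 3 in SP28wk against SP12wk, and 3 and 1 in SP28wk against LP, beside 7.26%, 6.1% and 8.57% of all genes. By list, in PRL against SAL 1 of 39 genes of the endocytic machinery, 2 of 11 ligands and carriers and 2 of 19 brush border genes were higher, and 1 of 12 transcription factors was lower. The smallest p belonged to Slc9a3r1, a scaffold of the Pdzk1 network, at 13.2 ± 7.27 CPM in PRL and 4.35 ± 2.67 CPM in SAL (log2 fold change 1.52 ± 0.54, edgeR adjusted p = 0.624). Next came Clu, the megalin ligand clusterin, at 31.9 ± 18.1 CPM in PRL and 17.4 ± 9.50 CPM in SAL (edgeR adjusted p = 0.652). In the other direction stood the metabolic regulators Ppargc1a, at 13.1 ± 7.29 CPM in PRL and 22.3 ± 8.65 CPM in SAL, and Foxo1, at 3.68 ± 3.34 and 11.1 ± 4.80 CPM (edgeR adjusted p of 0.996 and 0.999).

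In the males the smallest adjusted p values of these lists came from SP28wk against LP. Pdzk1ip1, a small membrane protein that binds Pdzk1, was at 709 ± 261 CPM in SP28wk (range 399 to 971 CPM) and 216 ± 281 CPM in LP (range 0 to 622 CPM), with 93 and 21 reads. Its log2 fold change was 1.80 ± 0.52 (SE) and its edgeR adjusted p 0.118. Ap2s1, a subunit of the clathrin adaptor complex, had 21 reads in SP28wk, 3 in SP12wk and 1 in LP (edgeR adjusted p = 0.141 for SP28wk against LP and 0.614 against SP12wk). Lower in SP28wk than in LP were the nuclear receptor gene Esrra, with 2 reads against 9, and the early endosome GTPase gene Rab5a, with 4 against 9, and neither passed (edgeR adjusted p of 0.547 and 0.765).

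In SP12wk against LP, the lipid carrier gene Fabp3 was at 649 ± 317 CPM and 302 ± 200 CPM (log2 fold change 1.21 ± 0.52, edgeR adjusted p = 0.603). The clathrin heavy chain gene Cltc was at 312 ± 139 CPM in SP12wk and 923 ± 876 CPM in LP (log2 fold change -1.22 ± 0.51, edgeR adjusted p = 0.603), where 1 LP library reached 2188 CPM. Esrra was lower than in LP here too, with 2 reads in SP12wk against 9 in the same LP libraries (log2 fold change -1.96 ± 1.11, edgeR adjusted p = 0.669). In SP28wk against SP12wk the proton pump gene Atp6v1a was at 182 ± 21.7 CPM and 56.5 ± 45.3 CPM, without overlap between the groups, as in 3.36% of all genes, and its edgeR adjusted p was 0.732. Fabp1, a lipid carrier gene, had 1 read in SP28wk and 6 in SP12wk, with an edgeR adjusted p of 0.775.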

How the data were processed

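Per the methods, Guppy called the bases and separated the barcodes, Porechop removed adapters, Filtlong selected reads, and Minimap2 placed the hamster reads on a mouse RefSeq assembly. The submitters' processing notes name Salmon and minimap2, and the methods name a direct cDNA kit where the labels name a PCR-cDNA kit. The deposited values are estimated counts per mouse transcript and animal that the authors did not normalize, and many transcripts of a gene carry the same counts. Here 1 transcript per gene was kept, values were rounded to whole numbers, and genes with a count of at least 1 in 4 (experiment 1) or 6 (experiment 2) of 12 libraries were fitted with the quasi-likelihood test of edgeR 4.0.16 in R 4.3.3 (TMM, 1 model per experiment, Benjamini-Hochberg over all genes). Alternatives used DESeq2 1.42.0, other filters, summed transcripts, a replicate block and the omission of each library. Exact permutation tests of mean CPM were two-sided and unadjusted. Correlations used log2(CPM + 2.95), the median value of the smallest count, and 100000 permutations. The fits were tested on simulated data, in which changes were set only in genes with more reads than Lrpap1, Clcn5 and Pdzk1 had in the males. Their means there were 3.08, 2.08 and 0.83 reads, so the simulation cannot speak for these genes.

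Replicates were separate animals. The tables held 0 columns of other samples. The genes and lists were chosen with earlier results of these data known. Genes of the lists were named when they passed, or otherwise by the 2 smallest p in each direction per comparison. A gene that this rule also names is not reported here. The same search for genes near Cubn was not made. All relations with marker sums and the neighbors of Lrpap1, Pdzk1 and Dab2 were added after the values were seen, as were the pairs without Lrp2 and the ratios to Lrp2. Intervals from read counts cover counting error only.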

Additional observations from a re-analysis of the deposited data

Results flagged for a closer look

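Among the 36 groups of 4 or 6 libraries in which the values of an uptake gene were not all 0, 6 held a library far from the others, all in the males. Chance flags about 1 in 20 groups of continuous values, a rate that does not apply to groups with 3 libraries at 0, where a single read is always far from the rest. That was the case in 5 of the 6, each with 1 read in the group. They were Pdzk1 in LP replicate 4 (38.8 CPM), Amn in SP12wk replicate 3 (50.2 CPM), Rbp4 in SP12wk replicate 1 (40.9 CPM), Amn in SP28wk replicate 1 (39.5 CPM) and Hnf4a in SP28wk replicate 2 (41.5 CPM). Pdzk1 in SP12wk replicate 3 was at 201 CPM, from 4 reads, while the next library of the group was at 28.3 CPM.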

How the results depend on the processing

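The count of uptake genes called was 0 in each of the 72 alternatives over the 4 comparisons. Of 411 alternative fold changes, 377 kept their direction, 34 changed it and none passed the threshold. On the log2 scale, summed transcripts gave Dab2 -0.0987 (SP12wk against LP), 0.0321 (SP28wk against SP12wk) and -0.0666 (SP28wk against LP), and Clcn5 0.0114 (SP28wk against LP). In SP28wk against LP, the size factors of DESeq2 gave Lrp2 -0.0256 and Dab2 -0.132, its own test gave -0.0271 and -0.136, and the stricter filter gave Dab2 -0.0786. In PRL against SAL, Clcn5 was -0.00496 without a filter and -0.0148 with the stricter one. The cause of these changes was not tested.

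When 1 library was left out, no fold change passed the threshold. The fold changes that crossed 0 ran, in PRL against SAL, from -0.42 to 0.0823 (Lrp2), -0.48 to 0.16 (Amn), -0.26 to 0.23 (Clcn5) and -0.0188 to 0.38 (Pdzk1). They ran from -0.0944 to 0.35 for Dab2 in SP12wk against LP, and in SP28wk against SP12wk from -0.30 to 0.14 (Dab2), -0.57 to 0.14 (Lrpap1) and -1.22 to 0.95 (Pdzk1). In SP28wk against LP they ran from -0.11 to 0.13 (Dab2) and -0.63 to 0.55 (Clcn5).

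The correlation of same-numbered libraries of different groups ran from -0.095 to 0.206 in experiment 1 and from -0.18 to 0.237 in experiment 2. For libraries with different numbers it ran from -0.213 to 0.211 and from -0.237 to 0.214. These ranges overlapped, which cannot settle whether replicate numbers pair the animals. With the replicate number as a block, 0 uptake genes were called, while 52 of all genes were called in PRL against SAL, beside 0 without it. Over all genes, the alternatives called 0 to 9 genes in SP12wk against LP (1 in the fit reported), 0 to 11 in SP28wk against SP12wk (7), 0 to 56 in SP28wk against LP (11) and 0 to 92 in PRL against SAL (0). The highest came without SP12wk replicate 1, LP replicate 2, LP replicate 4 and a filter, in that order. PRL against SAL gave 26, 44 and 27 without PRL replicate 3, PRL replicate 4 or SAL replicate 6. In experiment 1 all uptake genes but Lrp2 had at most 10 reads in a library.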
